A study of Rattus norvegicus with 12 samples.

Results

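The interferon response genes described here are 9 genes that type I interferon, type II interferon or both are known to induce, namely Ifit2, Ifit3, Mx1, Mx2, Oas1a, Irf7, Isg15, Gbp2 and Bst2. They were chosen by name, and all 9 were found among the 13151 genes of the renal cortex expression table. RNA sequencing was performed on the renal cortex of 12 male rats at 32 weeks of age, 4 in each of 3 groups. Zucker lean (ZL) rats, the controls, and Zucker fatty (ZF) rats, the obesity model, received no drug. ZF-SGLT2i rats were Zucker fatty rats given canagliflozin, an inhibitor of the sodium-glucose cotransporter SGLT2, at 10 mg/kg body weight daily, starting at 24 weeks of age and lasting 8 weeks. The series' design text calls the ZF rats leptin-deficient and the study's methods call them leptin receptor-deficient. The study describes its untreated ZF rats in the sequencing as the nontreated group, which its methods randomized together with ZF-SGLT2i. The methods describe ZL rats only in a time-course arm, where the rats had kidney biopsies at earlier ages. In the comparisons with ZL, strain and arm therefore cannot be told apart.

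Interferons are secreted proteins that bind cell-surface receptors and activate the JAK kinases, which phosphorylate STAT proteins. Type I interferon leads to a complex that contains Stat2 and Irf9 and binds the interferon-stimulated response element in DNA, while type II interferon acts through the gamma-activated site. The induced genes act in antiviral defense and antigen presentation, and in the kidney both resident cells and infiltrating leukocytes can express them.

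The promoters are shown because interferon acts on such genes through short response elements near their start sites. RefSeq promoter sequences of the rat assembly GRCr8 were matched for 6 of the 9 genes (Ifit3, Mx1, Oas1a, Irf7, Gbp2 and Bst2), and the 250 bases upstream of the start site were searched on both strands. The letters of the interferon-stimulated response element, GAAANNGAAA or TTTCNNTTTC, were found in 5 of the 6 promoters (83.3%), all but that of Mx1. The same letters were found in 3.29% of 27457 promoters, counting the first listed start of each gene. They were found in 2.58% of the 8832 promoters of tested genes and in 41.5% of the 106 matched promoters of other interferon pathway genes. The 5 matches are printed 5′ to 3′ on the strand of each gene, with 30 bases on each side where the window allows and the match in capitals. They lie at chr1:241527252-241527321 on the plus strand (Ifit3), chr12:41330395-41330465 on the plus strand (Oas1a), chr1:205800053-205800122 on the minus strand (Irf7), chr2:234005666-234005726 on the plus strand (Gbp2) and chr16:18255053-18255128 on the minus strand (Bst2).
Ifit3: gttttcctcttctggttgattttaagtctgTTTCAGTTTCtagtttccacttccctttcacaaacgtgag
Oas1a: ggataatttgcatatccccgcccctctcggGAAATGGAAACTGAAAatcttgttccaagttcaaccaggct
Irf7: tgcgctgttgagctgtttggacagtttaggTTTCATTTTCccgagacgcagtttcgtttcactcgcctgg
Gbp2: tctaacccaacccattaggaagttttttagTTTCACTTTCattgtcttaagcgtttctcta
Bst2: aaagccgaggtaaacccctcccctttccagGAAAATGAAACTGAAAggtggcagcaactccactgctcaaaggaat
The capitals of Oas1a and Bst2 span 2 overlapping matches each. The matches end 34 bases before the start site in Ifit3, 25 in Oas1a, 59 in Irf7, 21 in Gbp2 and 115 in Bst2. The letters of the gamma-activated site, TTCNNNGAA, were found in 7.52% of all promoters. For tested genes the share was 5.79%, and for other interferon pathway genes it was 19.8%. Of the 6 promoters here, 2 held these letters, those of Oas1a and Bst2. In Bst2 this match shares 3 bases with the response element, and both are shown at chr16:18255066-18255134 with the gamma-activated site in capitals.
Bst2: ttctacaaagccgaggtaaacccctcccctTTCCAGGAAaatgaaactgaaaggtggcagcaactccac
A match describes the letters only, and binding was not measured.

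The deposited values are read counts scaled to library size (CPM) with the trimmed mean of M values (TMM), and all levels are given on this scale. Between 8824980 and 12210257 reads per rat fell on genes. All 9 genes passed the filter of at least 1 CPM in at least 4 rats, which left 11633 genes. Groups were compared with limma on log2(CPM + 1) in 1 fit over all 12 rats, with Benjamini-Hochberg adjustment over these genes and a threshold of 0.05. Fold changes on this scale understate the change of weakly expressed genes. In whole cortex, fewer cells of a type and less RNA per cell cannot be told apart.

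In the ZF cortex, 4 of the 9 genes were higher than in the ZL cortex at an adjusted p under 0.05 (Ifit2, Ifit3, Oas1a and Isg15), and none was lower. Across all tested genes, 8.19% were called higher and 10.6% lower. On the recovered reads, edgeR called 4 and DESeq2 called 6, all higher, beside 8.72% and 9.39% of all tested genes. All 9 log2 fold changes were positive, from 0.062 for Bst2 to 0.95 for Oas1a, with a median of 0.68 beside a median of -0.0077 over all genes. Despite the size of the differences, the ZF and ZL rats overlapped for every one of the 9 genes, while the groups did not overlap for 19.0% of all tested genes. With any 1 rat left out, the log2 fold changes of the 4 called genes stayed positive. They ran from 0.43 to 0.68 for Ifit2, 0.67 to 0.95 for Ifit3, 0.75 to 1.14 for Oas1a and 0.34 to 0.59 for Isg15. The count of called genes, however, changed with the rat left out. Without ZF rat 3 none of the 9 was called by limma, beside 5.43% of all tested genes called higher and 6.83% lower in that setting. Of the 103 other interferon pathway genes tested, 8 were then called higher and 1 lower. With the share of all tested genes called higher in parentheses, the count of the 9 was 1 without ZF rat 4 (9.09%), ZL rat 1 (5.54%) or ZL rat 2 (8.35%). It was 2 without ZL rat 3 (6.28%), ZF-SGLT2i rat 3 (7.19%) or ZF-SGLT2i rat 4 (7.83%), and 6 without ZF rat 2 (5.4%). Quantile normalization called 2 of the 9 (9.56%), and turned the split of all called genes from 953 higher and 1232 lower to 1109 higher and 943 lower.

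**Figure D1:**
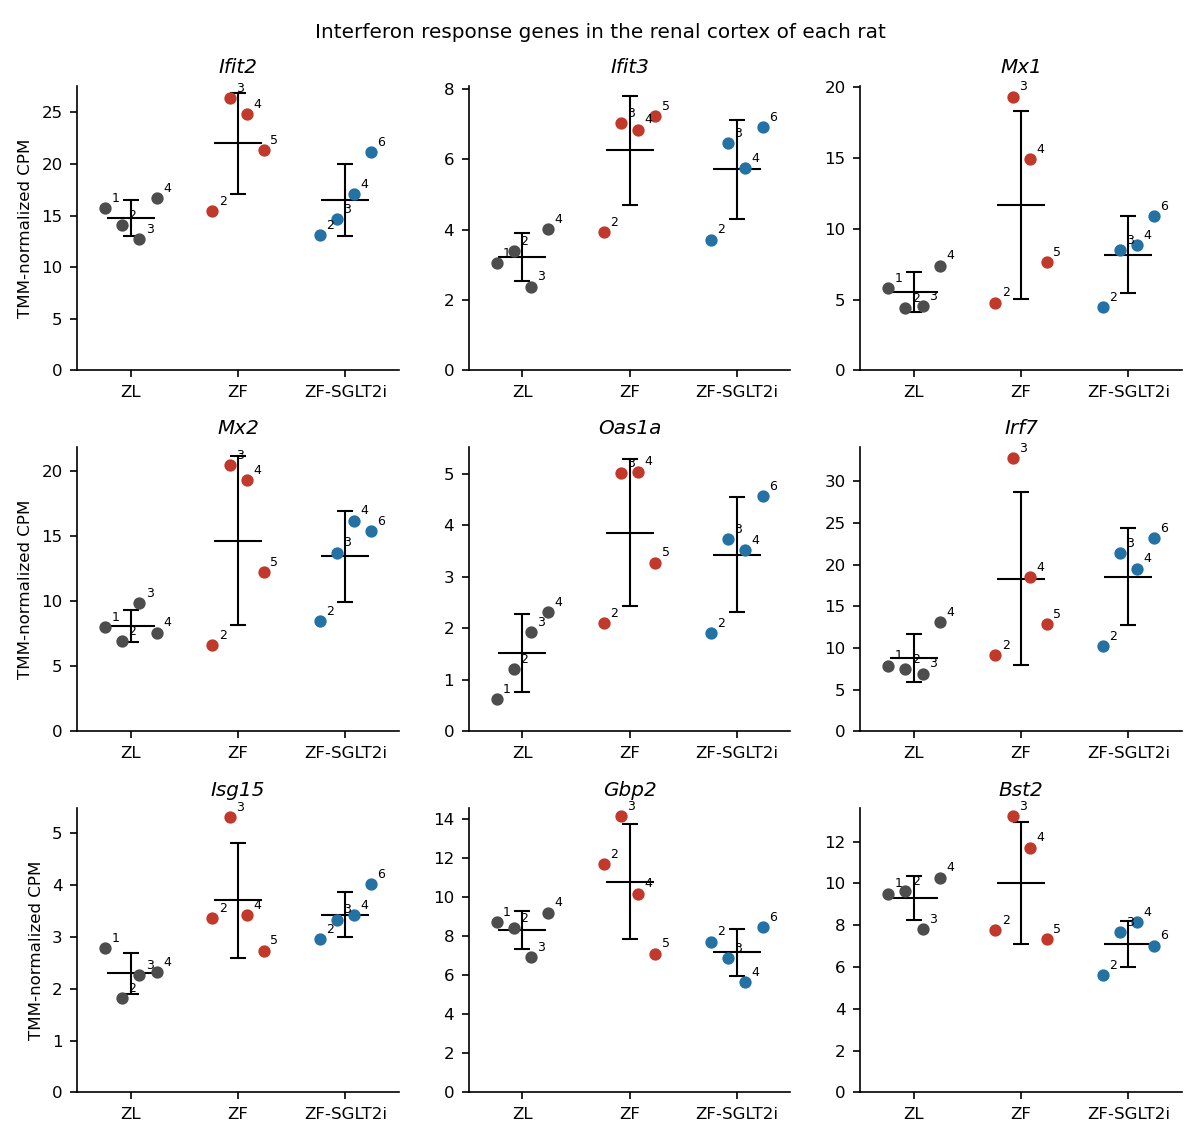
TMM-normalized CPM of each gene (vertical axis) in the 4 rats of each group (points, numbered by rat), with the group mean and SD (bar and whiskers). ZF rats 3 and 4 lie above rat 2 in 8 of the 9 panels, and in every panel at least 1 ZF rat lies within or below the range of the ZL rats.

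Ifit2 and Ifit3 encode proteins with tetratricopeptide repeats, of a family in which some members bind viral RNA and restrain translation. Ifit2 was at 15.7, 14.0, 12.7 and 16.7 CPM in ZL rats 1 to 4, at 15.4, 26.4, 24.9 and 21.3 CPM in ZF rats 2 to 5, and at 13.1, 14.6, 17.1 and 21.2 CPM in ZF-SGLT2i rats 2, 3, 4 and 6. ZF rats 3, 4 and 5 lay above all ZL rats, ZF rat 2 lay within them, and the ZF-SGLT2i rats spread over the range of both. The mean was 14.8 ± 1.77 CPM in ZL, 22.0 ± 4.86 CPM in ZF and 16.5 ± 3.51 CPM in ZF-SGLT2i (SD, n = 4 each). The log2 fold change in ZF against ZL was 0.52 ± 0.16 (SE; limma adjusted p = 0.0406; exact two-sided permutation p = 0.0857). Its call held in 13 of 23 alternative settings, with adjusted p between 0.0114 and 0.121.

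Ifit3 was at 3.05, 3.38, 2.38 and 4.02 CPM in the ZL rats, at 3.93, 7.02, 6.84 and 7.21 CPM in ZF rats 2 to 5, and at 3.71, 6.46, 5.74 and 6.91 CPM in ZF-SGLT2i rats 2, 3, 4 and 6. In each obese group the rat numbered 2 lay among the ZL rats and the other 3 lay above them. The log2 fold change in ZF against ZL was 0.77 ± 0.20 (limma adjusted p = 0.0170; exact permutation p = 0.0571), or 1.95 times the ZL mean. It was called in 20 of 22 alternative settings, the most of the 9 genes. In ZF-SGLT2i against ZL it was 0.66 ± 0.20 (limma adjusted p = 0.0250), called in 15 of 22.

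Oas1a encodes an oligoadenylate synthetase, which senses double-stranded RNA and activates RNase L. It was at 0.628, 1.21, 1.93 and 2.32 CPM in the ZL rats, at 2.11, 5.01, 5.04 and 3.28 CPM in ZF rats 2 to 5, and at 1.90, 3.74, 3.52 and 4.57 CPM in the ZF-SGLT2i rats. Again the rats numbered 2 of both obese groups fell within the ZL range and the others lay above it. These values rest on few reads, 7 in ZL rat 1 and 59 in ZF rat 4, and Oas1a belongs to a family of closely similar genes between which the authors' counting may have split reads. In ZF it rose by 0.95 ± 0.27 on the log2 scale over ZL (limma adjusted p = 0.0273; exact permutation p = 0.0571), 2.53 times the ZL mean. In ZF-SGLT2i it rose by 0.83 ± 0.27 over ZL (limma adjusted p = 0.0364; exact permutation p = 0.0857).

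Mx1 and Mx2 encode dynamin-like GTPases that trap viral ribonucleoproteins. Mx1 was at 5.83, 4.42, 4.54 and 7.41 CPM in the ZL rats, at 4.79, 19.3, 15.0 and 7.65 CPM in ZF rats 2 to 5, and at 4.48, 8.48, 8.85 and 10.9 CPM in the ZF-SGLT2i rats. The ZF rats spread 4.03-fold from the lowest to the highest, against 1.68-fold in ZL and 2.44-fold in ZF-SGLT2i. The log2 fold change in ZF against ZL was 0.81 ± 0.34 and did not pass the test (limma adjusted p = 0.114), although the ZF mean was 2.11 times the ZL mean. Mx2 was at 7.99, 6.94, 9.87 and 7.59 CPM in the ZL rats, at 6.62, 20.4, 19.3 and 12.2 CPM in the ZF rats, and at 8.47, 13.7, 16.2 and 15.4 CPM in the ZF-SGLT2i rats. ZF rat 2 had the lowest Mx2 value of all 12 rats and ZF rat 3 the highest. Mx2 did not pass the test in ZF against ZL (0.68 ± 0.28; limma adjusted p = 0.106) or in ZF-SGLT2i against ZL (0.64 ± 0.28; limma adjusted p = 0.105). DESeq2 on the recovered reads called Mx1 and Mx2 higher in ZF than in ZL (adjusted p = 0.0206 and 0.0192).

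Irf7 encodes the transcription factor that amplifies type I interferon production. It was at 7.90, 7.46, 6.92 and 13.1 CPM in the ZL rats, at 9.11, 32.8, 18.5 and 12.9 CPM in ZF rats 2 to 5, and at 10.2, 21.4, 19.5 and 23.2 CPM in the ZF-SGLT2i rats. ZL rat 4 reached the level of ZF rat 5, and ZF rat 3 stood above every other rat. ZF against ZL did not pass the test (0.87 ± 0.33; limma adjusted p = 0.0839), whereas ZF-SGLT2i against ZL did (0.97 ± 0.33; limma adjusted p = 0.0423; exact permutation p = 0.0571). The mean was 18.3 ± 10.4 CPM in ZF and 18.6 ± 5.79 CPM in ZF-SGLT2i (SD, n = 4), against 8.85 ± 2.88 CPM in ZL.

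Isg15 encodes a ubiquitin-like protein that is conjugated to other proteins and secreted. It was at 2.78, 1.82, 2.27 and 2.32 CPM in the ZL rats, at 3.36, 5.31, 3.42 and 2.73 CPM in ZF rats 2 to 5, and at 2.95, 3.33, 3.42 and 4.01 CPM in the ZF-SGLT2i rats. ZF rat 5 lay just below the highest ZL rat, and all 4 ZF-SGLT2i rats lay above all ZL rats. Isg15 rose by 0.49 ± 0.16 on the log2 scale in ZF over ZL (limma adjusted p = 0.0474; exact permutation p = 0.0571), the weakest of the 4 calls, which held in 9 of 22 alternative settings. In ZF-SGLT2i against ZL the difference was 0.43 ± 0.16 and missed the threshold (limma adjusted p = 0.0633), while the exact permutation p was 0.0286, the smallest that 70 assignments of 4 against 4 rats can give.

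Gbp2 and Bst2 stood apart from the other 7. Gbp2 encodes a guanylate-binding GTPase strongly induced by type II interferon, and Bst2 encodes tetherin, a membrane protein that holds budding virions on the cell. Gbp2 was at 8.70, 8.41, 6.92 and 9.20 CPM in the ZL rats, at 11.7, 14.1, 10.2 and 7.11 CPM in ZF rats 2 to 5, and at 7.71, 6.86, 5.63 and 8.47 CPM in the ZF-SGLT2i rats. Bst2 was at 9.51, 9.62, 7.82 and 10.3 CPM in the ZL rats, at 7.77, 13.2, 11.7 and 7.32 CPM in the ZF rats, and at 5.62, 7.67, 8.15 and 7.02 CPM in the ZF-SGLT2i rats. For both genes the ZF-SGLT2i mean was the lowest of the 3 groups. In ZF against ZL neither passed the test, at 0.31 ± 0.17 for Gbp2 (limma adjusted p = 0.229) and 0.062 ± 0.17 for Bst2 (limma adjusted p = 0.838). The sign of Bst2 in this comparison turned when ZL rat 3, ZF rat 3 or ZF rat 4 was left out.

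**Figure D2:**
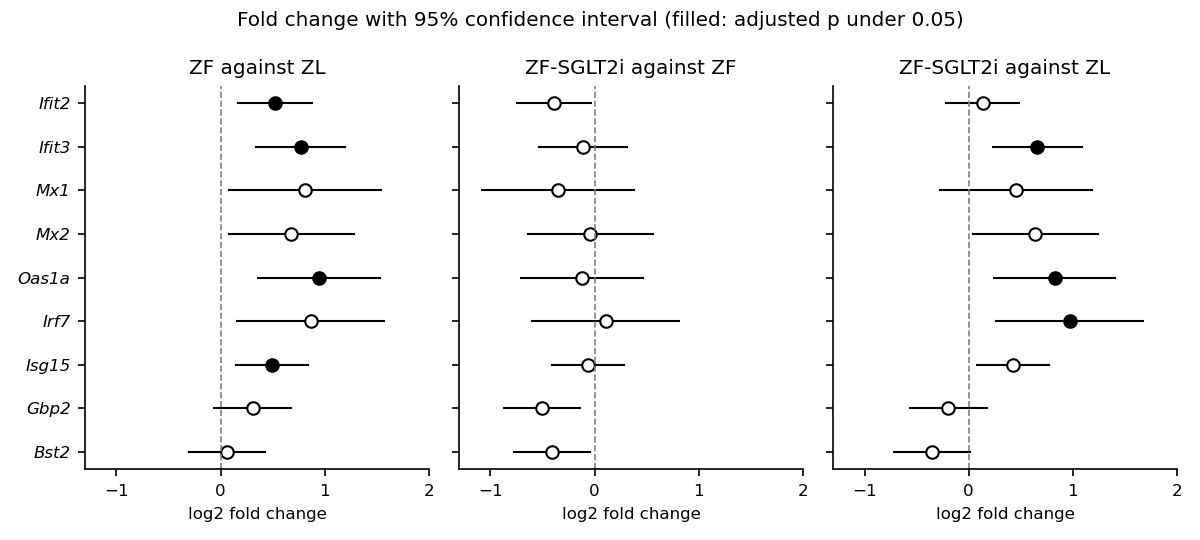
Log2 fold change of each gene on the log2(CPM + 1) scale (points) with its 95% confidence interval (lines) in the 3 comparisons. Filled points passed an adjusted p of 0.05, which 4 genes did in ZF against ZL, 0 in ZF-SGLT2i against ZF and 3 in ZF-SGLT2i against ZL.

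To ask whether canagliflozin changed these genes in obese rats, ZF-SGLT2i was compared with ZF. None of the 9 was called by limma, and the background was low as well, with 1.39% of tested genes above and 1.75% below their ZF level. The unadjusted p was under 0.05 for 3 genes, all with lower values in the treated rats (Ifit2, Gbp2 and Bst2), beside 8.64% of all tested genes. On the recovered reads, edgeR and DESeq2 called 0 each, beside 3.16% and 5.51% of all tested genes. For none of the 9 were the groups apart, against 11.2% of tested genes. The log2 fold change was -0.50 ± 0.17 for Gbp2 (95% interval -0.87 to -0.14; limma adjusted p = 0.138), -0.41 ± 0.17 for Bst2 (-0.78 to -0.048) and -0.39 ± 0.16 for Ifit2 (-0.74 to -0.033). Gbp2 was called lower in ZF-SGLT2i with array quality weights or without ZF rat 5, and the largest adjusted p over its alternatives was 0.323. For Mx1 the value was -0.35 with an interval from -1.08 to 0.38. The other 5 lay between -0.12 for Oas1a and 0.11 for Irf7, with intervals from -0.54 to 0.32 for Ifit3, -0.64 to 0.56 for Mx2, -0.70 to 0.46 for Oas1a, -0.60 to 0.81 for Irf7 and -0.41 to 0.28 for Isg15. The signs of Ifit3, Mx2, Oas1a, Irf7 and Isg15 turned in at least 1 alternative that left out a rat.

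In ZF-SGLT2i against ZL, 3 of the 9 genes were higher by limma (Ifit3, Oas1a and Irf7) and none was lower, beside 12.4% and 15.0% of all tested genes, and edgeR called 3 and DESeq2 called 4, beside 12.4% and 13.0% of all tested genes called higher by each. Without overlap between the groups there was 1 (Isg15), beside 28.0% of tested genes. The median of the 9 log2 fold changes was 0.46, beside -7.0e-05 over all genes. Gbp2 and Bst2 had negative values that did not pass the test, -0.19 ± 0.17 and -0.35 ± 0.17 (limma adjusted p = 0.432 and 0.143). With any 1 rat left out, the log2 fold changes of the 3 called genes stayed positive, from 0.56 to 0.82 for Ifit3, 0.63 to 1.02 for Oas1a and 0.85 to 1.22 for Irf7. The count of genes called by limma changed with the rat left out here too. With the share of all tested genes called higher in the same setting in parentheses, it was 0 without ZL rat 1 (8.97%) or without ZF-SGLT2i rat 3 (9.15%), 4 (11.3%) or 6 (8.77%). It was 1 without ZL rat 2 (12.4%) or 3 (11.6%), and 4 without ZF rat 2 (11.9%) or 3 (11.6%) or without ZF-SGLT2i rat 2 (10.8%). With quantile normalization it was 0 (13.9%). The comparison shares its ZL rats with ZF against ZL, so the calls of Ifit3 and Oas1a in both are not independent.

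The rats of a group tended to keep their order from gene to gene. In ZF, rat 3 was highest for 7 of the 9 genes and rat 2 lowest for 6. In ZF-SGLT2i, rat 2 was lowest for 8 and rat 6 highest for 7, and in ZL, rat 4 was highest for 7. The mean z-score of log2(CPM + 1) over the 9 genes was 1.69 in ZF rat 3, 1.05 in rat 4, 0.074 in rat 5 and -0.35 in rat 2. It ran from -0.77 in rat 2 to 0.62 in rat 6 of ZF-SGLT2i, and from -0.93 in rat 3 to -0.20 in rat 4 of ZL. Over the 12 rats, Pearson's r between pairs of the 7 genes other than Gbp2 and Bst2 was 0.68 to 0.91 (21 pairs, median 0.81), with the highest value for Mx1 with Irf7. Between those 7 and Gbp2 or Bst2 it was 0.055 to 0.60 (14 pairs, median 0.27). These values are a description over rats that share groups and libraries.

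**Figure D3:**
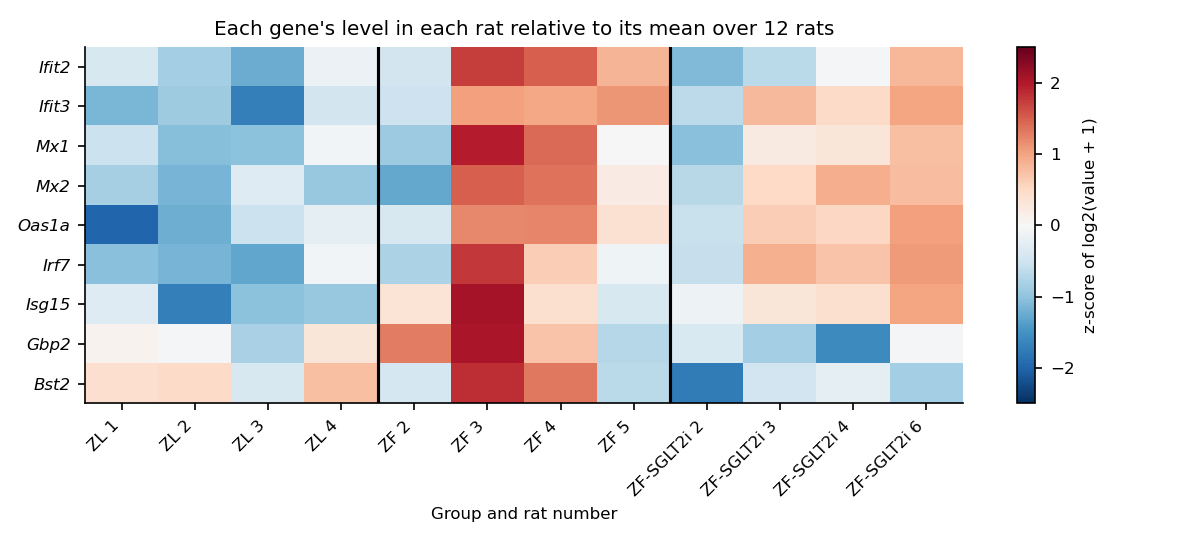
Z-score of log2(CPM + 1) over the 12 rats (color) for the 9 genes (rows) in each rat (columns, black lines between groups). ZF rats 3 and 4 are above the mean for all 9 genes, and ZF rat 2 and ZF-SGLT2i rat 2 are below it for most.

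By the same measure, the 8 tested genes outside the 9 whose pattern over the 12 rats was most like their mean z-score were Uba7 (Pearson's r = 0.949), RT1-T24-3 (0.926), RT1-S3 (0.925), Rtp4 (0.918), Mettl24 (0.917), Usp18 (0.894), Dtx3l (0.888) and Slfn3 (0.880). Without ZF rats 3 and 4, the rats farthest from the median of that score, r was 0.777 (Usp18) to 0.932 (RT1-T24-3). Since these genes were chosen on the same 12 rats, no test of their group differences is given.

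The rest of the pathway was followed in a list of 140 further genes. The table held 106 of them, and 103 passed the filter. In ZF against ZL, 22 of the 103 were higher and 1 was lower by limma, beside 8.19% and 10.6% of all tested genes. Positive values were found for 89 of the 103, beside 48.4% of all tested genes, and the median log2 fold change was 0.25 beside -0.0077. Of the listed interferons only Ifnk was in the table, at 0.830 ± 0.163 CPM in ZL, 0.920 ± 0.342 CPM in ZF and 1.44 ± 0.306 CPM in ZF-SGLT2i (SD, n = 4). Limma called it in no comparison. Its unadjusted p was under 0.05 in ZF-SGLT2i against ZF (0.35) and against ZL (0.41), as for 17.2% and 39.3% of all tested genes. None of the 5 receptor genes was called in ZF against ZL, with log2 fold changes of 0.089 for Ifnar1, 0.23 for Ifngr1, 0.15 for Ifngr2, 0.25 for Ifnlr1 and -0.042 for Il10rb. None of the 6 genes that relay the signal was called either. The log2 fold change was 0.13 for Jak1, 0.11 for Jak2, 0.16 for Tyk2, 0.15 for Stat2 and 0.37 for Irf9, the DNA-binding partner of the STATs (limma adjusted p = 0.0626 for Irf9, the smallest of the 6). Irf9 ran from 8.76 to 9.38 CPM in the ZL rats and was at 9.30, 15.5, 11.5 and 12.2 CPM in ZF rats 2 to 5, so the ZF rat numbered 2 was again the one within the ZL range.

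Of the 5 other interferon regulatory factors, Irf5, which acts downstream of endosomal sensors, rose in ZF. It was at 11.4, 12.5, 12.5 and 7.41 CPM in the ZL rats and at 16.6, 14.8, 16.0 and 14.1 CPM in the ZF rats, with no overlap (0.48 ± 0.13; limma adjusted p = 0.0254). The log2 fold changes of Irf1 (0.35), Irf2 (-0.099), Irf3 (0.24) and Irf8 (0.34) did not pass the test. For the factors, sensors and inhibitors the counts were of 1 or 2 genes each. Such counts are too small to tell apart from the background of 8.19% of all tested genes called higher. Among 13 sensors and adaptors 2 rose, Tlr7, a receptor for single-stranded RNA (0.49; limma adjusted p = 0.0359), and Ifih1, a cytosolic sensor of double-stranded RNA (0.30; limma adjusted p = 0.0282). Of 5 inhibitors 1 rose, Socs3, which blocks JAK signaling (0.93; limma adjusted p = 0.0228). Unlike the 9 genes, Socs3 was highest in ZF rat 2, at 6.71 CPM, with 2.81, 4.10 and 2.40 CPM in ZF rats 3 to 5.

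Among genes induced by type I interferon outside the 9, 14 of 48 were higher and 1 was lower in ZF than in ZL, beside 8.19% and 10.6% of all tested genes. The 10 with the largest log2 fold changes were Lgals3bp and Oasl (0.75 each), Tor3a (0.69), Slfn13 (0.66), Isg20 (0.66), Ube2l6, an enzyme that conjugates Isg15 (0.52), Parp9 (0.50), Lap3 (-0.50), Ly6e (0.45) and Ifi44 (0.40). Lgals3bp, a secreted glycoprotein, was at 62.5, 64.2, 48.5 and 56.1 CPM in the ZL rats and at 86.7, 118, 115 and 76.3 CPM in the ZF rats, with no overlap (limma adjusted p = 0.00374). Lap3, a leucine aminopeptidase, was the exception, with a mean of 188 ± 30.3 CPM in ZL and 131 ± 14.8 CPM in ZF (limma adjusted p = 0.00853). Among 20 genes induced by type II interferon 4 rose, the chemokine Cxcl10 (0.77), the peptide transporter Tap1 (0.55), the immunoproteasome subunit Psmb8 (0.55) and the adhesion molecule Icam1 (0.52). Some of the calls in ZF against ZL were unstable. Ube2l6 was called in 7, Oasl in 11, Cxcl10 in 12 and Tlr7 and Ifi44 in 14 of 22 alternative settings, and Psmb8 and Icam1 in 15 of 23. Leaving out ZF rat 3 reduced the pathway count from 23 to 9, while the share of all tested genes called fell from 18.8% to 12.3%. Without ZL rat 1 the count was 12 (11.9% of all tested genes), without ZL rat 2 it was 15 (19.6%), and the fit of these 2 groups alone gave 12 (13.9%).

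**Figure D4:**
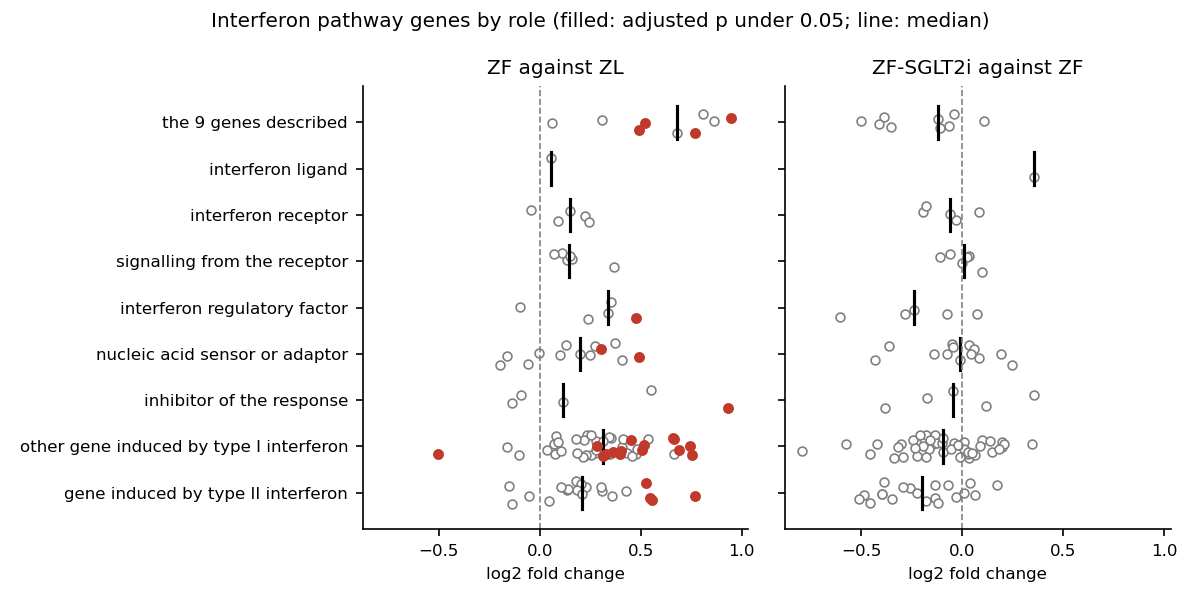
Log2 fold change on the log2(CPM + 1) scale (horizontal axis) of each tested gene (points) by role, with ZF against ZL on the left and ZF-SGLT2i against ZF on the right, and with the median of each role (line). Filled points, those past an adjusted p of 0.05, are found in ZF against ZL, 4 of the 9 genes and 23 of the other 103, and there are none in ZF-SGLT2i against ZF.

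In ZF-SGLT2i against ZF, none of the 103 other pathway genes was called by limma. At an unadjusted p under 0.05 there were 18, beside 17.2% of all tested genes, so that count was near the background. With edgeR none was called, beside 3.16% of all tested genes. DESeq2 called 6, all lower in ZF-SGLT2i, beside 3.15% of all tested genes lower and 2.36% higher. The median log2 fold change was -0.075 beside 0.0064 over all genes, and 68 of the 103 values were negative, beside 48.3% of all tested genes. The regulatory factor with the largest difference was Irf8, a factor of myeloid cells, at 6.86 CPM in ZF and 4.23 CPM in ZF-SGLT2i (-0.60 ± 0.21; limma adjusted p = 0.143). The log2 fold changes of Irf5 (-0.24) and Irf9 (0.096) did not pass it either. Without ZF rat 5, 9 of the 103 were called, 8 lower and 1 higher, and over all tested genes the shares in that setting also went up, to 2.7% lower and 2.2% higher.

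In ZF-SGLT2i against ZL, 16 of the 103 were higher and 4 lower, beside 12.4% and 15.0% of all tested genes. The count of higher genes was near the background and that of lower genes was below it. Positive values were found for 76 of the 103, beside 50.0% of all tested genes, and the median log2 fold change was 0.17 beside -7.0e-05. The receptor subunit Ifngr1 (0.31; limma adjusted p = 0.0190) and Irf9 (0.47 ± 0.13; limma adjusted p = 0.0171) rose, as did Trim25, which ubiquitinates an RNA sensor (0.24; limma adjusted p = 0.0386). Irf9 was at 11.8, 13.4, 11.4 and 15.2 CPM in the ZF-SGLT2i rats, all above the ZL rats. Among 48 genes induced by type I interferon outside the 9, 13 were higher and 2 lower, beside the same 12.4% and 15.0%. Of the 10 with the largest changes, Oasl (0.85), Oas2 (0.75), Oas1i (0.63), Tor3a (0.57), Ube2l6 (0.53), Lgals3bp (0.52), Slfn13 (0.51), Trim34 (0.48) and Ly6e (0.43) rose and Lap3 fell by 0.60 on the log2 scale. Among genes induced by type II interferon none rose, and B2m, the light chain of class I molecules, fell by 0.55 (limma adjusted p = 0.00491), from 481 ± 27.1 CPM in ZL to 329 ± 28.1 CPM in ZF-SGLT2i. Wars, a tryptophan tRNA ligase, fell by 0.21 (limma adjusted p = 0.0250). The fourth lower gene was Ifitm2, called in 12 of 23 alternative settings, and Oas2 and Ube2l6 were called in 14 of 22. The pathway count fell from 20 to 9 without ZL rat 1 or ZF-SGLT2i rat 6 and to 10 without ZF-SGLT2i rat 3, while the share of all tested genes called fell from 27.4% to 19.5%, 19.3% and 20.5%.

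Markers of the cells in the cortex were read beside these results. Their calls are those of limma unless another tool is named. Proximal tubule markers were abundant, with 8 of 8 in the table, led by Lrp2. Their summed mean was 21419.6 CPM in ZL, 17491 CPM in ZF and 15275 CPM in ZF-SGLT2i. Inner medulla markers (4 of 4 in the table, led by Aqp4) summed to 75.3 ± 16.8 CPM in ZL, 72.9 ± 12.8 CPM in ZF and 114 ± 19.7 CPM in ZF-SGLT2i (SD, n = 4). Aqp4 made up most of each sum, at 59.8 CPM in ZL, 60.5 CPM in ZF and 98.3 CPM in ZF-SGLT2i. Slc14a2, another of these markers, was at 0.310, 0.260 and 1.51 CPM in the same order. Of the 3 inner medulla markers tested, 2 were higher in ZF-SGLT2i than in ZL and none was called in the other comparisons. Ptprc, found on all leukocytes, was at 19.8, 19.4, 15.9 and 19.9 CPM in the ZL rats, at 28.5, 26.0, 28.7 and 17.5 CPM in ZF rats 2 to 5, and at 21.0, 16.0, 13.1 and 14.9 CPM in the ZF-SGLT2i rats. It did not pass the test in ZF against ZL (0.38 ± 0.16; limma adjusted p = 0.109) or in ZF-SGLT2i against ZF (-0.60 ± 0.16; limma adjusted p = 0.0610). In ZF-SGLT2i against ZF, DESeq2 called it lower (adjusted p = 0.0102), edgeR did not (adjusted p = 0.0507), and it was called in 5 of 23 alternative settings.

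All 11 macrophage and monocyte markers were in the table, led by Lyz2, and summed to 242, 238, 172 and 231 CPM in the ZL rats, 351, 332, 360 and 232 CPM in ZF rats 2 to 5, and 416, 256, 208 and 248 CPM in the ZF-SGLT2i rats. Of the 10 tested, 1 rose in ZF over ZL by limma, Cd14 (0.57; limma adjusted p = 0.0171), which also rose in ZF-SGLT2i over ZL (0.50; limma adjusted p = 0.0233). Lyz2 was at 197 CPM in ZF and 129 CPM in ZL and missed the limma threshold (adjusted p = 0.0532). Both edgeR (adjusted p = 0.0494) and DESeq2 (adjusted p = 0.0168) called Lyz2 higher in ZF, as did 8 of 23 alternative settings. The rats numbered 2 of both obese groups, low in the interferon response genes, had the second highest and the highest macrophage sums of their groups. Of 11 T and natural killer cell markers 10 were in the table, summing to 23.8 ± 4.59 CPM in ZL, 29.2 ± 5.04 CPM in ZF and 23.3 ± 8.21 CPM in ZF-SGLT2i, led by Cd4, which macrophages also express, with none of 4 tested called in ZF against ZL or in ZF-SGLT2i against ZF and 1 lower in ZF-SGLT2i than in ZL. Of 6 B and plasma cell markers only Mzb1 was in the table, at 0.479 CPM or less in every rat. Of 6 dendritic cell markers 4 were in the table, led by Zbtb46, with sums of 18.4, 22.9 and 20.8 CPM in ZL, ZF and ZF-SGLT2i. Neutrophil markers (3 of 5) summed to 1.38, 2.25 and 1.92 CPM. Red cell genes (4 of 4, led by Hba2) summed to 4.78 ± 1.07, 17.6 ± 8.62 and 27.7 ± 20.5 CPM (SD, n = 4). Of the 3 tested, Hba2 rose in ZF over ZL (1.44; limma adjusted p = 0.0497; called in 10 of 22 alternatives) and in ZF-SGLT2i over ZL (1.67; limma adjusted p = 0.0194; 20 of 22).

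Injured tubule markers (5 of 6 in the table, led by Spp1) summed to 249, 254, 245 and 236 CPM in the ZL rats, to 1641, 509, 1196 and 391 CPM in ZF rats 2 to 5, and to 923, 864, 569 and 260 CPM in the ZF-SGLT2i rats. Within ZF the order of these sums was not that of the interferon score, nor its reverse. Rat 2 had the highest sum and the lowest score, rat 3 the third highest sum and the highest score, rat 4 the second highest of both, and rat 5 the lowest sum and the third highest score. Within ZF-SGLT2i the order of the sums was the reverse of that of the scores, which were -0.77, 0.15, 0.16 and 0.62 in rats 2, 3, 4 and 6. With 4 rats, this order is a description. By limma 3 of the 5 were higher in ZF than in ZL, 1 was lower in ZF-SGLT2i than in ZF, and in ZF-SGLT2i against ZL 2 were higher and 1 lower. Fibroblast and pericyte markers (5 of 5 in the table, led by Pdgfra) summed to 489 ± 74.7 CPM in ZL, 613 ± 126 CPM in ZF and 387 ± 15.4 CPM in ZF-SGLT2i (SD, n = 4). By limma 2 of the 5 were higher in ZF than in ZL and 3 were lower in ZF-SGLT2i than in ZF, while 2 were lower in ZF-SGLT2i than in ZL. Podocyte markers (6 of 6, led by Podxl) summed to 1373 ± 182, 1782 ± 181 and 1821 ± 205 CPM in ZL, ZF and ZF-SGLT2i, with 3 of 6 higher in each obese group than in ZL. Collecting duct markers (6 of 6, led by Aqp2) summed to 1478 ± 283, 1611 ± 279 and 2263 ± 145 CPM, with 1 of 6 higher in ZF than in ZL, 1 higher in ZF-SGLT2i than in ZF and 5 higher in ZF-SGLT2i than in ZL. In ZF against ZL, limma called 1 of 6 endothelium markers higher, none of 4 thick limb and distal tubule markers, and of 8 proximal tubule markers 1 higher and 1 lower. Lrp2 was at 7835 CPM in ZF and 10737 CPM in ZL, with no overlap, and missed the limma threshold (adjusted p = 0.0731). Both edgeR (adjusted p = 0.0352) and DESeq2 (adjusted p = 0.00357) called Lrp2 lower in ZF. In ZF-SGLT2i against ZF, 1 of the 8 proximal tubule markers was lower by limma, which called none of the endothelium or thick limb and distal tubule markers. DESeq2 called Umod, the leading thick limb and distal tubule marker, lower (adjusted p = 0.0107). It was at 1856 CPM in ZF-SGLT2i and 2966 CPM in ZF, with no overlap. Neither limma (adjusted p = 0.0917) nor edgeR (adjusted p = 0.0775) called Umod, and 4 of 23 alternative settings did. In ZF-SGLT2i against ZL, 2 of the 8 proximal tubule markers were lower, 2 of 6 endothelium markers were higher, and of 4 thick limb and distal tubule markers 1 was higher and 1 lower. The part of any of these cell types in the interferon results was not tested.

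**Figure D5:**
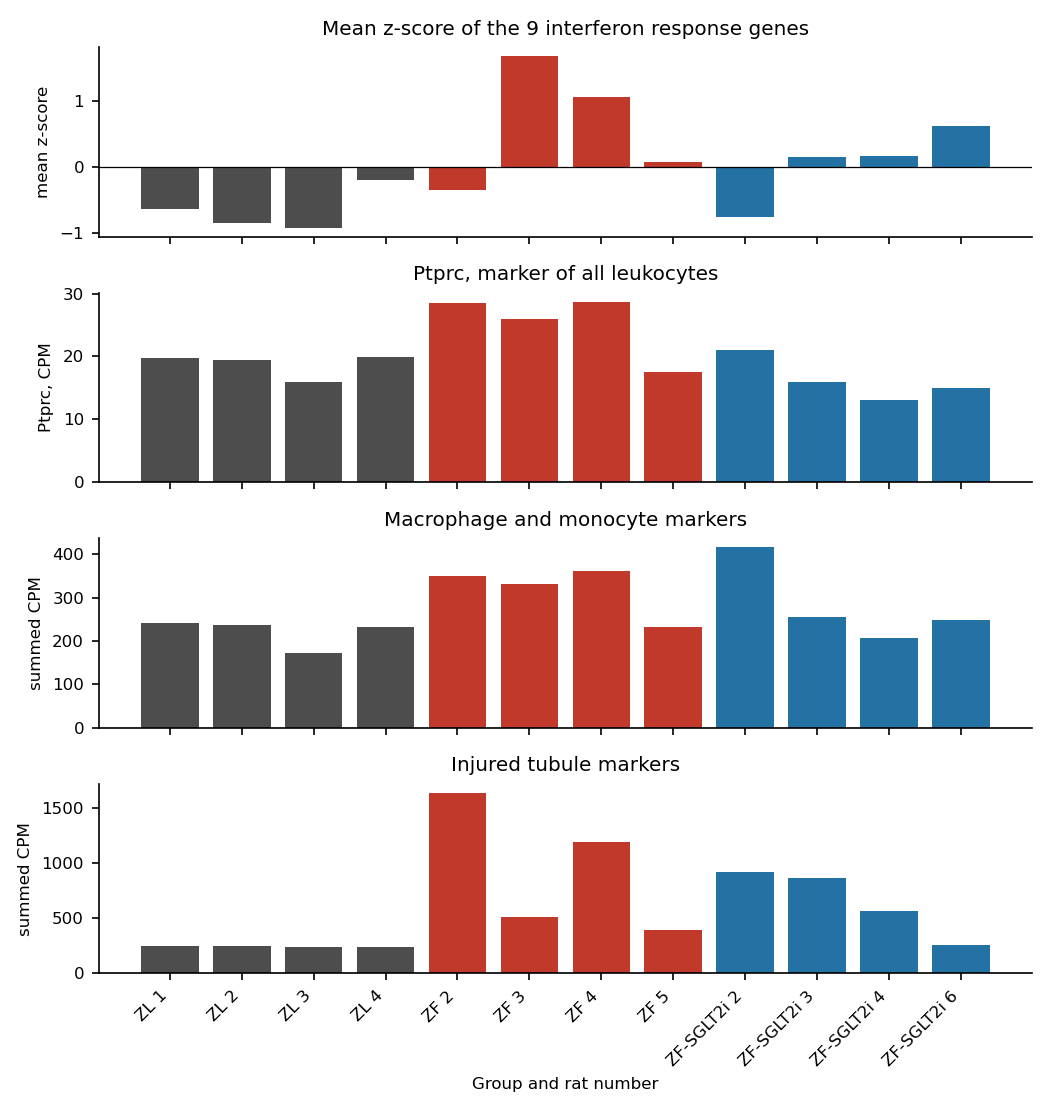
Mean z-score of the 9 interferon response genes, Ptprc in CPM, and the summed CPM of macrophage and injured tubule markers (bars) in each of the 12 rats. ZF rat 2 and ZF-SGLT2i rat 2 have the lowest score of their groups (-0.35 and -0.77) and the highest injured tubule sums (1641 and 923 CPM), while ZF rat 4 is second highest in both (1.05 and 1196 CPM).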

How the data were processed

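Renal cortex RNA of 12 rats was sequenced from directional, ribosomal RNA-depleted libraries. The submitters' processing notes name Trimmomatic 0.38, RSEM 1.3.0, Bowtie2, edgeR and the genome build rn6. The deposited signal values are the authors' CPM scaled by edgeR TMM factors, and whole reads were recovered from them (100% of values, within 0.001 of a whole number). The share of reads on ribosomal RNA genes ranged over 7.25 to 12.0% (ZL), 8.82 to 12.0% (ZF) and 11.5 to 15.2% (ZF-SGLT2i). No 2 libraries of a group were alike (chi-square per gene at least 5.43).

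After 1 was added, log2 values of the 3 groups entered 1 fit in limma 3.58.1 (R 4.3.3) with the variance trend. A gene was kept if 4 or more rats reached a value of 1. Exact two-sided permutation tests compared single genes (scipy 1.17.1). Alternatives were a pseudocount of 0.1, no filter, a mean of at least 10, other scalings, only the 2 groups compared, a rat number block, array weights, edgeR 4.0.16 and DESeq2 1.42.0 on recovered reads, and each rat left out. The limma step was tested on simulated data.

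The genes, the pathway and marker lists and the tests were chosen with earlier results of these data known. Named were the 9 genes, all tested receptors, relay genes and regulatory factors, up to 10 called genes of each other role by size of change, Ptprc, the leading gene of each leukocyte list, and the 8 genes most like the mean z-score. Aqp4, Slc14a2, Cd14, Ifnk, Hba2, Spp1, Lrp2, Umod, Pdgfra, Podxl, Aqp2 and Ifitm2 fall outside that rule and were named after their values were seen. The values of 1 relay gene are not reported here. Promoters came from RefSeq (GRCr8). Gene coordinates are not given, since the submitters' build is rn6.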

Additional observations from a re-analysis of the deposited data

Results flagged for a closer look

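Of the 27 groups of 4 rats checked for the 9 genes, 2 held a rat far from the other 3, where chance gives about 1.35. Ifit3 was at 3.93 CPM in ZF rat 2, with the other ZF rats between 6.84 and 7.21 CPM. Irf7 was at 13.1 CPM in ZL rat 4, with the other ZL rats between 6.92 and 7.90 CPM.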

How the results depend on the processing

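Of the 9 genes in ZF against ZL, limma called 4, beside 8.19% of all tested genes called higher. With that share for each setting in parentheses, limma called 1 of the 3 genes left at a mean of at least 10 (8.65%). It called 2 of the 9 with quantile normalization (9.56%), with only the 2 groups compared (6.03%) or with the rat number as a replicate block (3.54%). With a rat left out the count was 0 to 6 (5.4% to 9.09%). Of the 103 other pathway genes limma called 23, and 15 of the 58 left at a mean of at least 10. Of the 103 it called 12 in the 2-group fit, 11 with the block and 9 to 25 with a rat left out. All called genes went from 2185 to 807 with the block and 1389 to 2453 with a rat left out.

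In ZF-SGLT2i against ZF, 1 of the 9 was called with array weights, beside 5.92% of all tested genes. With a rat left out it was 0 to 1, beside 1.51% to 4.9% of all tested genes. The other pathway count was 2 in the 2-group fit, 5 with the block, 7 with array weights, 6 with DESeq2 and 0 to 9 with a rat left out. All called genes went from 366 to 223 with the block, 689 with array weights, 641 with DESeq2 and 176 to 570 with a rat left out. In ZF-SGLT2i against ZL, the 3 calls became 1 of the 3 genes left at a mean of at least 10, beside 13.7% of all tested genes called higher. With that share for each setting in parentheses, the count was 0 with quantile normalization (13.9%) or the block (6.14%) and 5 in the 2-group fit (11.8%). With a rat left out it was 0 to 4 (8.77% to 13.0%). The other pathway count went from 20 to 7 with the block and 9 to 22, and all called genes from 3184 to 1502 with the block and 2241 to 3302.

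With a rat left out, the log2 fold change of Bst2 in ZF against ZL ran from -0.074 to 0.18. In ZF-SGLT2i against ZF that of Ifit3 ran from -0.29 to 0.050, Mx2 from -0.35 to 0.15, Oas1a from -0.32 to 0.070, Irf7 from -0.16 to 0.42 and Isg15 from -0.17 to 0.086. Irf7 was at -0.13 with the block and -0.061 with array weights. The cause of these changes was not tested. Same-numbered rats did not deviate together (r from -0.38 to 0.25), and no source says that the numbers pair them.

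The 4 calls in ZF against ZL were kept in number with a pseudocount of 0.1, without the filter, with median ratio scaling, without ribosomal RNA genes in the scaling and with edgeR. Scaling without ribosomal RNA genes raised the median gene by 0.16 to 0.18 on the log2 scale in each rat. Oas1a, Isg15 and Ifit3 rest on 7 to 59, 20 to 53 and 21 to 80 reads per rat, which limits their precision by counting alone.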
